A study of Mus musculus with 4 samples.

Results

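The genes described here encode nucleolar factors of ribosome biogenesis. They were chosen by name from the platform annotation: every probe set with a single gene symbol of the Nop, Nol, Utp, Rrp or Polr1 series, the DEAD-box helicases Ddx10, Ddx18, Ddx21, Ddx27, Ddx47, Ddx52 and Ddx56, and Fbl, Ncl, Npm1, Dkc1, Gar1, Nhp2, Bop1, Pes1, Wdr12, Rrs1, Ubtf and Nolc1. The rule itself uses no measured value, but the members were chosen with earlier results of these data known. The rule found 91 of the 22690 probe sets in the table, for 51 of 12394 genes with a single symbol. It found no probe set for Dkc1, which was not analysed here. Of the 51 genes, 46 had a probe set with values on every array that passed a filter on low values. Polr1e was under the filter, and Ddx10, Ddx52, Rrp12 and Utp18 had values at 1 date only. One of the 46, Nol3, encodes an apoptosis repressor and shares only its name with the others.

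The cells were YAMC, a conditionally immortalised line of young adult mouse colon epithelial cells. One group received no treatment and the other was kept for 16 h in medium in which the probiotic bacterium Lactobacillus GG (LGG) had grown, and no other agent or genotype is given. Each group had 2 mouse 430A arrays of total RNA, and by the array titles 1 array of either group belongs to an earlier date (date 1) and 1 to a later date (date 2). No label gives separate cultures for them, and p-values therefore measure only the spread between these arrays, which may be technical. No unconditioned or acidified medium was analysed, so bacterial products and the medium itself cannot be told apart.

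Ribosomes are built in the nucleolus. RNA polymerase I, helped by the factor UBF, copies the ribosomal DNA into a long precursor, and small nucleolar ribonucleoproteins (snoRNPs) modify its nucleotides. The small-subunit processome, large-subunit assembly factors and RNA helicases then cut and fold the precursor, while nucleolar chaperones such as nucleophosmin carry and assemble parts. This work is costly and in most cells follows growth, often with the transcription factor Myc, and in renewing gut epithelium it is highest in dividing cells.

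Values are linear intensities as deposited. Trimmed means (2% of values cut at either end) ran from 500.1 to 513.5 over the arrays, so arrays appear scaled to a common mean, and a change in total RNA per cell would not be seen. In RNA from whole cultures, fewer cells of a type and less RNA per cell cannot be told apart. Of 10 markers of colon epithelium with values on all arrays, 3 (Krt8, Krt18 and Krt19) averaged over the filter at 101, while Epcam lay between 6 and 9 and Cdh1 between 8.7 and 41.8. Of 6 fibroblast markers, 5 were over it. The summed fibroblast markers lay between 27715 and 32570 in untreated and between 22705 and 24314 in LGG arrays, the epithelial ones between 2320 and 3203 and between 2838 and 3352, the leukocyte ones (5 of 6 listed on all arrays) between 297 and 352 and between 378 and 517, and the endothelial ones (4 of 4) between 309 and 398 and between 452 and 487. In the fibroblast list Dcn measured 7734.1 and 8376.2 untreated and 4084.9 and 4473.8 with LGG. Col1a2, Pdgfra, Vim and Thy1 were also lower with LGG at both dates, while Col1a1 had log2 ratios of -0.15 and 0.07. Markers within the other lists did not run together. In the endothelial list Kdr measured 136.2 and 128.9 untreated and 396.5 and 329.2 with LGG, while Tek went from 149.4 and 96.1 to 36.8 and 51.4 and Pecam1 from 48 and 34.1 to 12.1 and 21.3. In the leukocyte list Cd68 measured 146 and 101.2 against 274.1 and 289, and Lyz2 116.7 and 146.9 against 98 and 14.7. In the epithelial list Krt19 was lower with LGG, at 868.2 and 1153.4 against 577.9 and 615.2, and Krt18 higher, at 834.8 and 1319 against 1966.8 and 1431.1. Ptprc, which defines leukocytes, was at most 37.2. The part of these shifts in any result below was not tested.

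Few of these genes passed the test. Polr1d, which encodes a subunit shared by RNA polymerases I and III, rose by its brighter probe set. Nol12, a nucleolar RNA-binding factor of ribosomal RNA maturation, fell, and 44 of the 46 did not pass (adjusted p under 0.05 by the Benjamini-Hochberg method over all probe sets tested, in limma with a term for date). That is 2.17% in each direction, beside 3.01% of the 6952 genes tested that rose and 3.5% that fell, so the counts are near the background. At an unadjusted p under 0.05, 2 were higher and 6 lower, or 4.35% and 13% beside 10.5% and 9.81% of all genes. None of the 46 reached a fitted 2-fold change, beside 3.57% of all genes. Their median log2 change was -0.15, beside 0.03 for all genes tested, with fitted changes between -0.94 and 0.80. Both calls were lost without date as a block (adjusted p = 0.194 for Nol12 and 0.0867 for Polr1d in limma). With 2 arrays a group the smallest two-sided p of an exact permutation test that ignores the dates is 0.333. The limma p-values rest on variance shared across genes (12.5 prior against 1 residual degree of freedom).

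**Figure D1:**
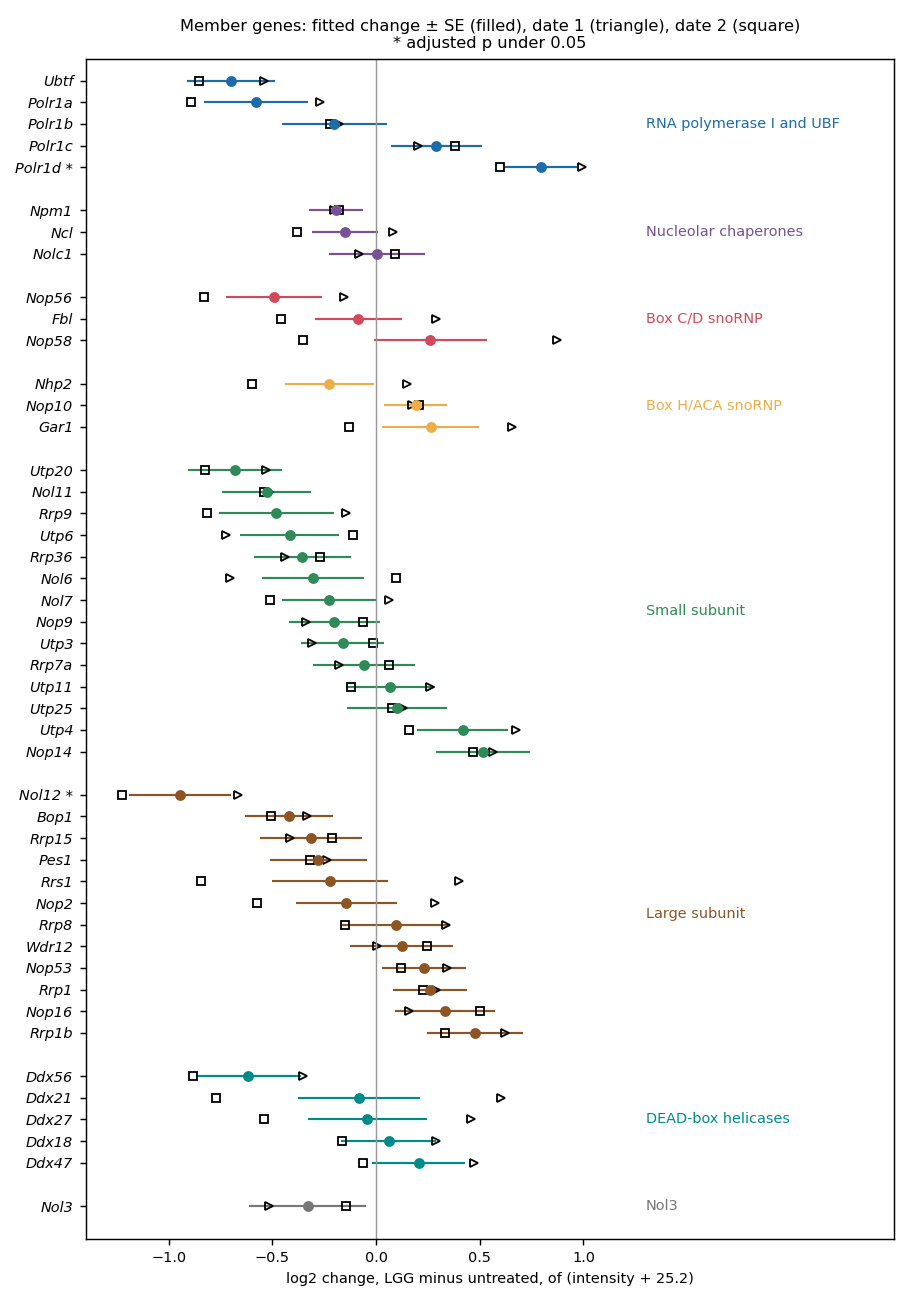
Fitted log2 change (LGG minus untreated, of intensity + 25.2) with its SE for the 46 genes, grouped by role, and the change at date 1 (triangles) and date 2 (squares). Only Polr1d (0.80) and Nol12 (-0.94), marked by asterisks, passed, and in several rows the triangle and the square lie on opposite sides of 0.

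Of 5 RNA polymerase I genes tested, 1 rose (Polr1d), 0 fell and 4 did not pass in limma, with 2 lower and 1 higher at an unadjusted p under 0.05. For this and the role groups below, the shares of all genes tested at that threshold are 9.81% lower and 10.5% higher. Polr1d measured 1893.3 and 2147.7 on the untreated arrays of dates 1 and 2, and 3789.1 and 3266.7 on the LGG arrays. Both LGG arrays were above both untreated arrays, as for 26.2% of all genes tested (22.3% had both below). The log2 change was 0.80 ± 0.17 (SE; limma adjusted p = 0.0159), or 1.74-fold. A second Polr1d probe set went the other way, from 2100.3 and 1827.7 to 1697.7 and 1412.3 (log2 change -0.33 ± 0.18, limma adjusted p = 0.335), again without overlap between the groups. When the log2 values of both probe sets were averaged, the Polr1d change was 0.23 and did not pass (limma adjusted p = 0.461), so the rise is that of 1 probe set. In fits without the block the brighter probe set passed without LGG replicate 2 (0.90, limma adjusted p = 0.0473), and did not without LGG replicate 1 (0.69, adjusted p = 0.0741), untreated replicate 1 (0.71, 0.648) or untreated replicate 2 (0.89, 0.498). Which Polr1d transcripts each probe set reads is not given in the sources used here.

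Polr1c, the other subunit shared with RNA polymerase III, measured 627.3 and 607.1 untreated and 725.2 and 798.0 with LGG (log2 change 0.29 ± 0.22, limma adjusted p = 0.503). Its groups did not overlap, but it did not pass. Polr1a, the largest and catalytic subunit, measured 527.1 and 457.4 untreated and 433.3 and 234.9 with LGG (-0.58 ± 0.25, adjusted p = 0.205 in limma). A dimmer tested Polr1a probe set was higher with LGG at date 1 and lower at date 2. It measured 94 and 153.3 untreated and 196.8 and 30.1 with LGG (-0.40 ± 0.45). Polr1b, the second catalytic subunit, measured 209.2 and 271.4 against 181.5 and 229.3 (-0.20 ± 0.25), and its groups overlapped. Polr1e, a further subunit, averaged under the filter and was not tested, with 109.5 and 100.3 untreated and 108.9 and 58.7 with LGG. Of these subunits only Polr1d passed, by its brighter probe set.

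Ubtf, which encodes UBF, had the lowest adjusted p among the 44 genes that did not pass, each taken by its brightest probe set. Untreated arrays gave 1319.7 and 1124.6 and LGG arrays 898.4 and 610.7, without overlap. The log2 change was -0.70 ± 0.21 (limma adjusted p = 0.07), or 1.62-fold lower. Its second probe set went from 194.1 and 180.2 to 80.4 and 111.4 (-0.82 ± 0.28, limma adjusted p = 0.104). The 2 probe sets thus had the same direction at both dates, and their mean passed (log2 change -0.76, limma adjusted p = 0.0164). With probe sets averaged, calls rose over all genes, to 383 higher and 430 lower from 209 and 243. Prior degrees of freedom were then 41.2, beside 12.5, and Utp20 passed with its value unchanged. The pass of Ubtf thus cannot be credited to its second probe set. The brighter probe set alone did not pass in the main fit. In fits without the block its change was -0.97 without LGG replicate 1 and -0.43 without LGG replicate 2.

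**Figure D2:**
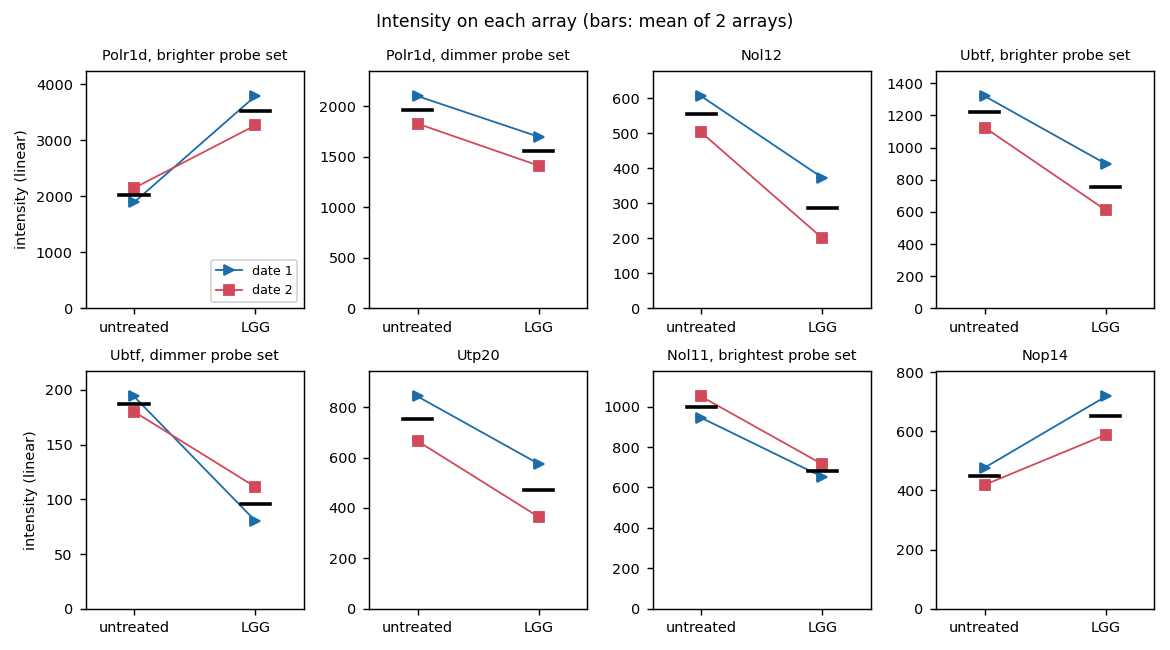
Linear intensity on each array for 8 probe sets of 6 genes; lines join the untreated and LGG array of a date and black bars mark the mean of 2 arrays. The Polr1d probe sets run in opposite directions, and in all 8 panels, chosen for display, the untreated and LGG arrays do not overlap. Of all genes tested, 22.3% had both LGG arrays below both untreated arrays and 26.2% above.

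Of 12 large-subunit factors tested, 1 fell, 0 rose and 11 did not pass in limma, with a median log2 change of -0.03 and 1 (Nol12) at an unadjusted p under 0.05. Nol12 measured 606.6 and 503.4 untreated and 373.5 and 200.8 with LGG. Both LGG arrays were below both untreated ones, and the fall was larger at date 2 (log2 ratio -1.23) than at date 1 (-0.66). The log2 change was -0.94 ± 0.25 (limma adjusted p = 0.0369), or 1.92-fold lower, from a mean of 555 ± 73 to 287 ± 122 (SD, n = 2). In fits without the block it was -1.35 without LGG replicate 1, the LGG array of date 1 (limma adjusted p = 0.0205), and -0.54 without LGG replicate 2 (adjusted p = 0.287), and it did not pass without untreated replicate 1 (adjusted p = 0.81) or 2 (adjusted p = 0.615). It also missed the threshold under median scaling (adjusted p = 0.0651) and without an intensity trend (0.0627).

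The PeBoW complex, which Pes1, Bop1 and Wdr12 form to process the large-subunit precursor, gave no call. Bop1 measured 1082.9 and 913.1 untreated and 853.2 and 634.1 with LGG (log2 change -0.42 ± 0.21, limma adjusted p = 0.285), without overlap. Pes1 measured 487.4 and 431.2 against 409.9 and 340.4 (-0.28 ± 0.23), also without overlap, and Wdr12 305.7 and 221.2 against 306.4 and 266.6 (0.12 ± 0.25), with overlap. The highest values relative to untreated in this group were those of Rrp1b, at 344.8 and 467.1 against 544.2 and 594 (0.48 ± 0.23, limma adjusted p = 0.268), and Nop16, at 359 and 287.2 against 403.2 and 417.6 (0.33 ± 0.24). Rrp1, a paralog of Rrp1b, had a log2 change of 0.26, Nop53, a factor that binds the processing exosome, 0.23, and Rrp15 -0.31. A dimmer Nop53 probe set, at 98.8 and 54.8 untreated and 211.2 and 138.8 with LGG, had a log2 change of 0.98 ± 0.28 and just missed the threshold (limma adjusted p = 0.0512). Its untreated mean of 76.8 lay under the filter on low values, and only its LGG mean of 175 brought it into the test. Its near pass is thus tied to that filter. The rRNA methyltransferase genes Nop2 (-0.14) and Rrp8 (0.09) and Rrs1 (-0.22), whose product helps to load the small ribosomal RNA of the large subunit, were each higher at date 1 and lower at date 2.

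Of 14 small-subunit factors 0 rose and 0 fell in limma, with 2 lower and 1 higher at an unadjusted p under 0.05 and a median log2 change of -0.21. Utp20, a scaffold of the processome, measured 842.5 and 665.3 untreated and 574.7 and 364.1 with LGG (-0.68 ± 0.23, limma adjusted p = 0.0992). Nol11, a processome factor also needed for transcription of ribosomal DNA, measured 945.1 and 1050.6 against 652.4 and 715.2 (-0.53 ± 0.21, limma adjusted p = 0.174). Both had LGG arrays below untreated arrays without overlap. For Nol11 the dates were close, with log2 ratios of -0.52 and -0.54, and its other 2 probe sets had changes of -0.50 and -0.29. Nop14 went the other way, at 477 and 418.9 against 717.8 and 588.4 (0.52 ± 0.23, limma adjusted p = 0.216), also without overlap, as did Utp4, which encodes cirhin, with overlap (934.6 and 780.6 against 1507.8 and 873.8, 0.42 ± 0.22). Utp20 passed with the probe sets of each gene averaged (limma adjusted p = 0.0266, its own value unchanged). In fits without the block its change was -0.99 without LGG replicate 1 and -0.37 without LGG replicate 2.

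The other small-subunit genes lay between -0.48 and 0.10. Rrp9, a protein of the snoRNP that guides the first cleavages, differed more between dates than between groups, at 342 and 120.6 untreated and 306.7 and 57.5 with LGG (-0.48 ± 0.28). Utp6 (-0.42) had 3 probe sets that disagree in sign (-0.42, -0.21 and 0.06). Nol6 (-0.30) was at 912.7 on 1 array, untreated at date 1, and between 487.8 and 550.8 on the other 3. Without that array, in a fit without the block, its change was 0.13. The other tested Nol6 probe set was lower with LGG at both dates, with overlap. It measured 746.8 and 390.2 against 580.6 and 346.5 (-0.255 ± 0.230). Rrp36 was lower without overlap, at 491.9 and 428 against 356 and 350 (-0.36 ± 0.23). Nol7 (-0.23), Nop9 (-0.20), Utp3 (-0.16), Rrp7a (-0.06), Utp11 (0.07) and Utp25 (0.10) had changes smaller than their SE.

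The snoRNP proteins gave no call in either class. Of 3 box C/D proteins, which carry out 2'-O-methylation of ribosomal RNA, 0 passed in limma and 0 had an unadjusted p under 0.05. Fibrillarin (Fbl), the methyltransferase, measured 1895.6 and 1613.8 untreated and 2319.9 and 1167.7 with LGG (log2 change -0.09 ± 0.21, limma adjusted p = 0.874). On this probe set the LGG arrays were thus the highest and the lowest of the 4. The other Fbl probe set was lower with LGG at both dates, at 1555.2 and 1235.7 against 1353.6 and 1068.3 (-0.20 ± 0.20), with overlap. Of the core partners of fibrillarin, Nop58 ran like the brighter Fbl probe set across dates and Nop56 did not. Nop58 measured 601 and 758.5 against 1120.4 and 589.3 (0.26 ± 0.27), and Nop56 1049.7 and 959.7 against 938.6 and 528.3 (-0.49 ± 0.23, limma adjusted p = 0.247). In fits without the block the Nop56 change was -0.89 without LGG replicate 1 and -0.09 without LGG replicate 2. Of 3 box H/ACA proteins, which direct pseudouridine formation, 0 passed in limma and 0 had an unadjusted p under 0.05. Gar1 measured 818.9 and 903.6 against 1304.8 and 823.4 (0.26), Nhp2 1640.7 and 1570.3 against 1823.4 and 1026.9 (-0.23) and Nop10 3662.2 and 2949.5 against 4130.4 and 3411.7 (0.19).

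The nucleolar chaperones gave no call either. Of these 3 genes 0 passed in limma and 0 had an unadjusted p under 0.05. Nucleophosmin (Npm1) measured 7177.7 and 6240.1 untreated and 6222.9 and 5501.4 with LGG (-0.19 ± 0.13, limma adjusted p = 0.443), and its other probe set had a change of -0.01. Nucleolin (Ncl), which binds ribosomal RNA precursors, measured 4795.6 and 4032.3 against 5069.1 and 3086.4 (-0.15 ± 0.16, limma adjusted p = 0.654). A dimmer tested Ncl probe set was lower at both dates without overlap, at 1809.6 and 1727.8 against 1528.9 and 1293.8 (-0.325 ± 0.189). Nolc1, a snoRNP chaperone, measured 549.8 and 440.2 against 517.6 and 470.5, a change of 0.00 ± 0.23.

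Of 5 DEAD-box helicases tested, which unwind RNA during assembly, 0 passed in limma and 1, Ddx56, had an unadjusted p under 0.05. Ddx56 measured 409.9 and 342.7 untreated and 315.3 and 174.5 with LGG, without overlap (-0.62 ± 0.25, limma adjusted p = 0.184). By their brightest probe sets, the other 4 were each higher at date 1 and lower at date 2. Ddx21 acts in both transcription of ribosomal DNA and processing. Its brightest probe set showed this most, at 463.5 and 640.2 untreated and 716.9 and 364.6 with LGG (log2 ratios 0.60 and -0.77, fitted change -0.08 ± 0.29). Its other probe set was instead lower at both dates without overlap, at 530.4 and 519.1 against 422.5 and 402.3 (-0.33 ± 0.23). Ddx27 had log2 ratios of 0.46 and -0.54, Ddx47 of 0.47 and -0.06 and Ddx18 of 0.29 and -0.16. A dimmer Ddx18 probe set was higher at both dates (log2 change 0.56 ± 0.26, limma adjusted p = 0.245). Nol3, the apoptosis repressor, measured 122.7 and 126.3 against 78.3 and 111.7 (-0.33 ± 0.28), and without it the median of the remaining genes was -0.14.

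**Figure D3:**
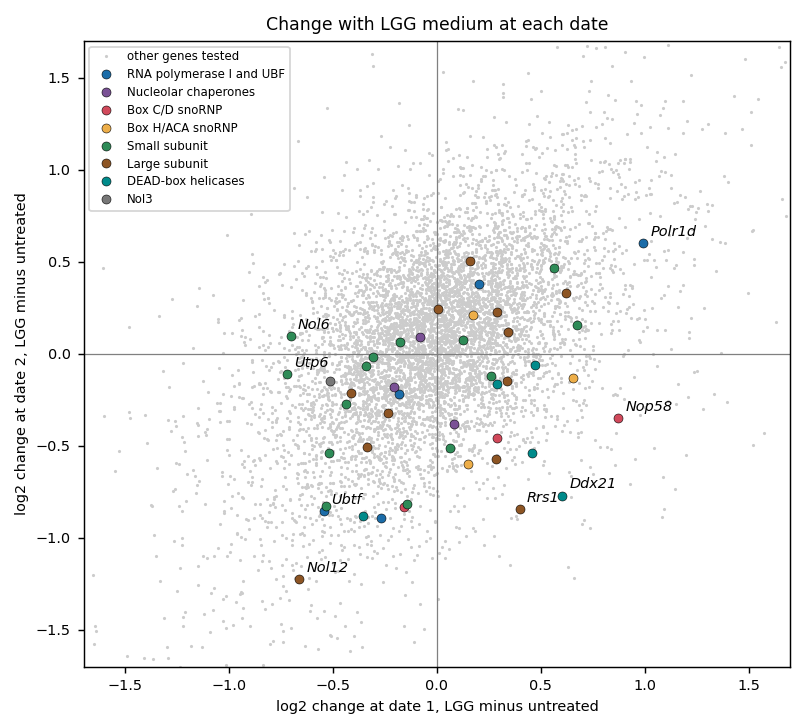
Log2 change with LGG medium at date 1 (x) and date 2 (y) for genes described here (coloured by role) and the other genes tested (grey; 96 lie outside the axes). Of the 46, each shown by its brightest probe set, 14 lie at the lower right, higher at date 1 and lower at date 2. Among them are Ddx21, Rrs1 and Nop58. A further Ddx21 probe set, not shown, was lower at both dates.

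The dates gave opposite signs for 17 of the 46 genes (37%), close to the 34.7% of all genes tested, but the directions were shared out differently. Of the 46, 14 (30.4%) were higher with LGG at date 1 and lower at date 2, beside 12.9% of all genes tested, and 3 (6.52%) ran the opposite way, beside 21.7%. A further 18 (39.1%) were lower at both dates, beside 30.2%, and 11 (23.9%) higher at both, beside 35.1%. These are counts without a test, and 1 pair of arrays per date gives none. The median log2 ratio was 0.07 at date 1 and -0.17 at date 2, beside -0.02 and 0.08 for all genes. Both LGG arrays were below both untreated arrays for 16 (34.8%, beside 22.3% of all genes) and above them for 7 (15.2%, beside 26.2%). The 14 genes included 4 of 5 helicases, 4 of 6 snoRNP proteins and nucleolin, and in 12 of them the fitted change was smaller than its SE. Each gene is counted here by its brightest probe set. Further tested probe sets of Ddx21, Fbl and Ncl were lower with LGG at both dates. That of Ddx18 was higher at both, and that of Nhp2 ran like its brightest.

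Array by array, the LGG array of date 1 had the highest value for 21 of the 46 genes (beside 22.1% of all genes) and the LGG array of date 2 the lowest for 24 (beside 24.6%). On the log2 scale the LGG array of date 2 differed from that of date 1 by a median of -0.31 for these genes and 0.04 for all genes tested. For the untreated arrays these medians were -0.17 and -0.03. Without LGG replicate 1 the median change of the 46 genes was -0.23 and without LGG replicate 2 it was 0.19, so its sign rests on which LGG array is kept. As a measure of RNA integrity, the 3' over 5' probe set ratio of Gapdh was 0.805 and 0.784 untreated and 0.931 and 0.767 with LGG at dates 1 and 2, and that of Actb 1.112, 1.081, 1.196 and 1.049 in that order. The LGG array of date 1 had the highest ratio for both genes, and the part of this in the pattern was not tested.

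**Figure D4:**
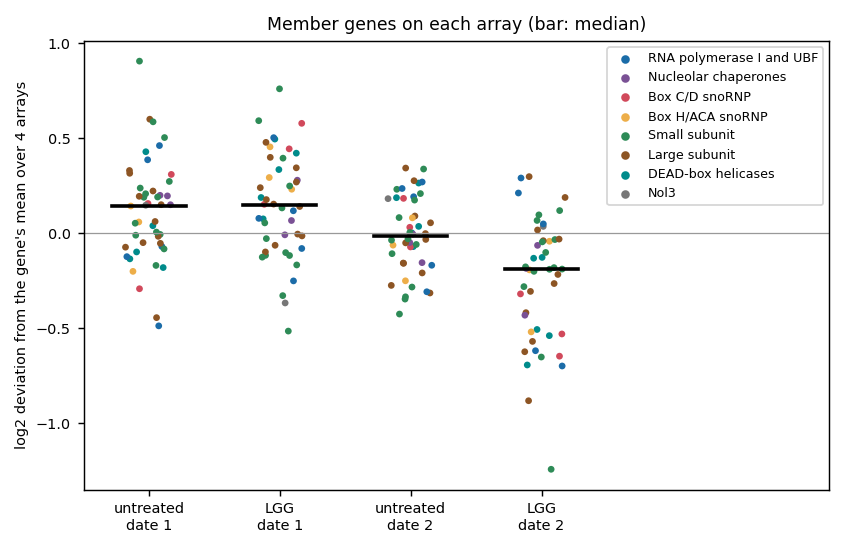
Log2 deviation of each of the 46 genes from its own mean over the 4 arrays, by array and coloured by role, with the median as a black bar. The median was 0.15 on both arrays of date 1, -0.02 for untreated and -0.19 for LGG at date 2.

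Myc measured 428.3 and 433.4 untreated and 618.4 and 423.2 with LGG (log2 change 0.24 ± 0.24, limma adjusted p = 0.644), higher at date 1 and almost level at date 2. Further ribosome biogenesis genes outside the naming rule gave no call. Of 79 such genes tested (processing exosome, processome, snoRNP assembly, large-subunit export), 0 rose and 0 fell in limma, beside 3.01% and 3.5% of all genes. At an unadjusted p under 0.05 in limma, 4 were higher and 2 lower, beside 10.5% and 9.81% of all genes. The median log2 change of the 79 was 0.02. The highest were Surf6, a nucleolar matrix protein (0.72 ± 0.26, limma adjusted p = 0.135), Mphosph6, an exosome cofactor (0.72 ± 0.22, adjusted p = 0.0674), and Sbds, which frees the large subunit of an anti-association factor (0.67 ± 0.20, adjusted p = 0.0632). The lowest were Naf1, an assembly factor of box H/ACA snoRNPs (-0.59 ± 0.23), Mdn1, a large-subunit remodelling ATPase (-0.56 ± 0.26), and Exosc10, a catalytic exosome subunit (-0.52 ± 0.22). Sbds was higher without overlap, at 937.6 and 958.7 untreated and 1430.9 and 1633.1 with LGG. Of the 79, 21 (26.6%, beside 12.9% of all genes) were higher at date 1 and lower at date 2 and 9 (11.4%, beside 21.7%) the reverse, while 26 (32.9%, beside 35.1%) were higher and 23 (29.1%, beside 30.2%) lower at both dates, with no test of these shares.

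At date 2 alone, 18 probe sets of 14 member genes had values that date 1 lacked, and 15 of them were over the filter on at least 1 of the 2 arrays. Of these 15, 12 were lower and 3 higher on the LGG array, beside 47.9% lower of all 3861 such probe sets over the filter, from 1 array per group and with no test. Utp18, a processome protein, measured 576.8 untreated and 531.8 with LGG, and Ddx52, a helicase, 394.4 and 367.3 on one probe set and 550.2 and 522.5 on the other. Polr1e measured 267.3 and 188.8, and a further Nop56 probe set 879.2 and 634.5. One Nolc1 probe set measured 713.8 and 496.3 and another 208.9 and 53.8, and a further Rrp1b probe set 307.2 and 145.6, while both of its tested probe sets had higher means with LGG. Rrp12 was dim on both arrays, at 22.6 and 5.8.

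Promoter sequences were available in the RefSeq table (build GRCm38.p6, 250 bases before to 50 after each start) for 41 of the 51 genes, and the first window listed for a gene was searched on both strands for 3 motifs that do not overlap one another. The E-box CACGTG, which Myc and related factors bind, was in 8 of the 41 windows (19.5%), beside 7.24% of 27025 promoters in the table and 10.4% of 5689 of the genes tested. The ETS-type motif CCGGAAG was in 16 (39%), beside 9.12% and 19.2%, and the palindromic motif of the factor BANP in 0, beside 0.496% and 1.11%. These shares describe letters in a window and say nothing of binding. The windows of both genes that passed, Nol12 and Polr1d, and of the 2 small-subunit genes with the lowest adjusted p, Utp20 and Nol11, are shown, 5' to 3'; capitals mark CACGTG or CCGGAAG.
Nol12, chr15:78934683-78934982, plus strand: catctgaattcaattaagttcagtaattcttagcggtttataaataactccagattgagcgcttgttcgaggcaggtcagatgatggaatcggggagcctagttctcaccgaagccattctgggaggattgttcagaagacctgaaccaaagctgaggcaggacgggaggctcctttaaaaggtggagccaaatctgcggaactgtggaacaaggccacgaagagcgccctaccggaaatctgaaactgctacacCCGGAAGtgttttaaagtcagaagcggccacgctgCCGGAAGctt
Nol11, chr11:107189332-107189631, minus strand: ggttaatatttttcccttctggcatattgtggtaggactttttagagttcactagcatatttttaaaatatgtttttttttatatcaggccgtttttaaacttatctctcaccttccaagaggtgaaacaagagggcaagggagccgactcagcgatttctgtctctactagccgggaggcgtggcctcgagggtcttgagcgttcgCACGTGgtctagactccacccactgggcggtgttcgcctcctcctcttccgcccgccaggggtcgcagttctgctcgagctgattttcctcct
Utp20, chr10:88826765-88827064, minus strand: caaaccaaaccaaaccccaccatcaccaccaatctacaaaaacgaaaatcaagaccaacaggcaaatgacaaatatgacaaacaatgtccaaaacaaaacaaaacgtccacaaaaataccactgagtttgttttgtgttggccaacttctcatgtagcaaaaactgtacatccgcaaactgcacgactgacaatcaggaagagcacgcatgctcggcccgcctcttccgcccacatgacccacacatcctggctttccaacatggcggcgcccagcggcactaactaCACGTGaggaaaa
Polr1d, chr5:147077096-147077395, plus strand: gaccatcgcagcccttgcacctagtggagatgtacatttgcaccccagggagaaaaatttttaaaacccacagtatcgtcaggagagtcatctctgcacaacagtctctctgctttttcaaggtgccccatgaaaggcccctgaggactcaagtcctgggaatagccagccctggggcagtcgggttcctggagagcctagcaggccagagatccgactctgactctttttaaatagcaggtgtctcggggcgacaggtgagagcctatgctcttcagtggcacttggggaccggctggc
Nol12, the gene that fell, holds 2 copies of CCGGAAG near its start. Utp20 and Nol11, lower on both LGG arrays but not past the threshold, each hold 1 CACGTG, and none of the 3 motifs is in the window of Polr1d.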

How the data were processed

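What the authors deposited is an intensity table on a linear scale that covers all 4 arrays; its software, scaling and background steps are not given in the sources used here. Both arrays of date 1 lacked the same 6307 probe sets. The number of arrays limits the precision, and no detection calls were used.

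Values were used as deposited and taken as log2(intensity + 25.2), the pseudocount being 5% of the geometric mean of the arrays' trimmed means, which understates the change of dim genes. After 64 control probe sets were set aside, 16319 had values on all arrays and 10333 with a mean of at least 101 (20% of that mean) were tested. Tests used limma 3.58.1 in R 4.3.3 (terms for group and for date as a block, trended eBayes, adjusted p under 0.05 by Benjamini-Hochberg across the tested probe sets), tested on simulated data. The probe set with the highest mean stood for its gene, giving 6952 genes. The dates pair the arrays because the titles share them; date differences of the untreated and LGG arrays correlated at 0.29 across genes.

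Names came from the platform annotation, and all 51 member genes matched the mouse RefSeq table by Entrez identifier with 0 symbols changed. Members and lists were chosen with earlier results of these data known. The rule for named genes took those that passed, the 4 largest changes per role list, Fbl, Ncl, Npm1, Ubtf, Polr1a, Myc and, of the further biogenesis genes, the 3 largest per direction where fewer than 3 passed; all other members were named after their values were seen. Mpp6 was taken off the list of further genes after its value was seen, because this symbol is that of an unrelated membrane scaffold gene. Alternatives changed the block, pseudocount, filter, normalization, probe set rule, variance trend or left out an array. No protein sequences were used. Figures were drawn with matplotlib 3.10.9.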

Additional observations from a re-analysis of the deposited data

Results flagged for a closer look

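The 3 member probe sets with values at date 2 alone that were higher on the LGG array, counted above, entered no fit. For Polr1c this was 1171.7 against 809.8, in the same direction as its tested probe set. For Ddx10, a small-subunit helicase with no other probe set on all arrays, it was 422.5 against 415.1, while its other probe set measured 311.4 against 328.8. For Utp11 it was 225.4 against 215.9. Each is 1 array against 1 array, so none has a test.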

How the results depend on the processing

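Polr1d and Nol12 kept their calls with a pseudocount of 1% or 20% of the trimmed mean, a filter at 50% of it and quantile normalization. Without date as a block (no pairing of the arrays) 0 members rose and 0 fell (5 at an unadjusted p under 0.05), 0 further biogenesis genes rose and 24 of all genes rose and 37 fell. With no filter on low values 0 genes passed in either direction (6 members and 1525 genes at an unadjusted p under 0.05). Median scaling left 1 member higher and 0 lower, and 152 of all genes lower. Without an intensity trend 0 members passed (8 unadjusted), and 115 of all genes rose and 129 fell. With a gene's probe sets averaged, 0 members rose, 3 fell (Nol12, Ubtf and Utp20), 4 further biogenesis genes rose (Mphosph6, Sbds, Surf6 and Tma16), 1 fell (Naf1) and 383 of all genes rose and 430 fell, on 41.2 prior degrees of freedom. Under quantile normalization Nolc1 was -0.0026.

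Leaving out 1 array, in fits without the block and with the lone array assumed to vary like the other group, gave 0 to 1 members higher and 0 to 4 lower, a member median of -0.23 to 0.19, 0 further genes higher and 0 to 1 lower, and 0 to 198 of all genes higher and 0 to 230 lower. The log2 change of Nol12 ran from -1.35 to -0.54 and that of Polr1d from 0.69 to 0.90. The log2 change, never called, took both signs for Ddx18 (-0.10 to 0.22), Ddx21 (-0.55 to 0.38), Ddx27 (-0.56 to 0.48), Ddx47 (-0.029 to 0.44), Fbl (-0.57 to 0.40), Gar1 (-0.061 to 0.59), Myc (-0.024 to 0.50), Ncl (-0.51 to 0.20), Nhp2 (-0.63 to 0.18), Nol6 (-0.74 to 0.13), Nolc1 (-0.15 to 0.16), Nop2 (-0.70 to 0.41), Nop58 (-0.19 to 0.71), Rrp7a (-0.15 to 0.039), Rrp8 (-0.26 to 0.45), Rrp9 (-1.48 to 0.52), Rrs1 (-0.68 to 0.23), Utp11 (-0.15 to 0.28), Wdr12 (-0.089 to 0.34). The cause was not tested. Without the block, these fits also compare arrays of unlike dates. Within dates, Rrp9 was lower with LGG at both (log2 ratios -0.15 and -0.82) and Wdr12 was higher at both (0.003 and 0.24). Without Nol3, an alternative chosen after seeing the data, the counts were the same and the median was -0.14.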
